A study of Mus musculus with 2 samples.

Results

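The small leucine-rich proteoglycans (SLRPs) of the valve matrix are described here through 9 genes of the 32285 in the files, Dcn, Bgn, Aspn, Lum, Fmod, Prelp, Omd, Ogn and Podn, which were taken by symbol and all found. The cells came from mitral valves of C57BL/6J mice at 1 month of age. The wild type library (Fbn1 +/+) held the pooled valves of 5 mice, and the second library held those of 3 mice heterozygous for Fbn1 C1039G, a fibrillin-1 allele used as a model of Marfan syndrome. Both leaflets were digested with enzymes, and RNA 3′ ends were counted as unique molecular identifiers (UMIs) in single cells with the 10x Chromium kit, version 3.1. Each genotype had 1 library, so no difference between them could be set against a spread between replicates, and no p-value is given.

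SLRPs are secreted proteins built of leucine-rich repeats, many of them carrying chondroitin, dermatan or keratan sulfate chains. They bind fibrillar collagens and control how fibrils assemble, and several also bind growth factors such as TGF-beta. Class I holds decorin, biglycan and asporin, class II lumican, fibromodulin, PRELP and osteomodulin, class III osteoglycin and a later class podocan. In the valve, interstitial cells are the fibroblast-like cells that make this matrix, while an endothelial layer covers the leaflet and macrophages lie within it.

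Barcodes of 1000 or more UMIs were kept if mitochondrial genes gave no more than 20% of these. Interstitial cells were those with at least 0.5% of UMIs from Col1a1, Col1a2 and Col3a1. Below that share, macrophages had at least 10 UMIs of C1qa, C1qb and C1qc, and endothelial cells at least 5 of Pecam1, Cdh5 and Emcn. The libraries held 100969482 and 103663375 UMIs in 9509 and 9744 barcodes, of which 17 barcodes occurred in both. There were 6255 wild type and 7165 Fbn1 C1039G/+ interstitial cells, 281 and 388 endothelial cells, and 850 and 927 macrophages, with median depths of 7577 to 11103 UMIs. All 13 interstitial markers that the rule did not use were detected in interstitial cells, endothelial cells and macrophages alike, so only their levels are compared. In interstitial cells they summed to 16349 and 16915 UMIs per 1000000 UMIs of the class (CPM), against 3366 and 3199 in macrophages. In endothelial cells they summed to 11782 and 15415 CPM, so these sums set interstitial and endothelial cells apart only weakly. The single most abundant gene gave 8674 and 9924 CPM of the endothelial sums, and 9201 and 9624 CPM of the interstitial ones. The 10 endothelial markers summed to 4557 and 4987 CPM in endothelial cells and the 8 macrophage markers to 11518 and 12150 CPM in macrophages. Doublets were not removed, and 133 and 170 interstitial barcodes also had 10 or more C1q UMIs.

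Most of these genes lie beside a relative in the mouse genome (mm10, GENCODE M21). Prelp and Fmod are neighbours on chromosome 1 on opposite strands, transcribed away from each other with 115839 bases between them. Dcn and Lum follow each other on chromosome 10, and Aspn, Omd and Ogn lie in a row on chromosome 13 inside Cenpp, a gene of the opposite strand measured at only 3.27 and 3.09 CPM. Bgn lies on the X chromosome. Podn on chromosome 4 overlaps Scp2 on the same strand in this annotation, and how reads in the shared stretch were assigned is not given in the sources used here, so its values are uncertain.

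RefSeq promoters (GRCm38.p6) were found for 7 of the 9 members. The 250 bases before the RefSeq start are shown for Fmod and Prelp, the neighbours whose levels were most alike across cells, and for Ogn, which peaked in another cluster of interstitial cells. Capitals mark matches to the E box, CANNTG, the site read by basic helix-loop-helix factors, searched on both strands (the motif is its own reverse complement).
Fmod, chr1:134037004-134037253, plus strand: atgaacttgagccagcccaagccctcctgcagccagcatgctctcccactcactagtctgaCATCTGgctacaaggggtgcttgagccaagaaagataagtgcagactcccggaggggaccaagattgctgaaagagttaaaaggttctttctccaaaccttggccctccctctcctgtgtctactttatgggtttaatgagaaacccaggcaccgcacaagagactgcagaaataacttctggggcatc
Prelp, chr1:133921402-133921651, minus strand: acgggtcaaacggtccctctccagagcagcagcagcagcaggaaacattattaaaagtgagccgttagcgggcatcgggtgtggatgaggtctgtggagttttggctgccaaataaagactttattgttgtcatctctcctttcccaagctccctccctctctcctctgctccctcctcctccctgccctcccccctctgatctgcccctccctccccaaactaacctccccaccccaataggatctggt
Ogn, chr13:49607765-49608014, plus strand: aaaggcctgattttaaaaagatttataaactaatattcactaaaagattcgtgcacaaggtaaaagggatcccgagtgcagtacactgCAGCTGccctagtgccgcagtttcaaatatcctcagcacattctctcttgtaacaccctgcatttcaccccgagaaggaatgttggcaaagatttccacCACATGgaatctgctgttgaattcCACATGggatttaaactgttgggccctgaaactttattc

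The Fmod window held 1 E box, 189 bases before the start, and the Ogn window held 3, at 162, 63 and 39 bases before it. The Prelp window held no E box match. An E box is present in 66.2% of all 32851 RefSeq mouse promoter windows of this length, so its presence is common. Of the other motifs searched on both strands, TATAAA occurs in 12.4% of all windows and was matched in Ogn and Aspn, where the Ogn matches overlap each other, and GGGCGG occurs in 32.7% and was matched in Bgn and in 1 of the 2 Podn windows. TGANTCA, in 6.75% of all windows, was matched in none of the members' windows.

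Of the 9 members 8 had their highest level in interstitial cells in both libraries, and Podn had it in endothelial cells. UMIs count 3′ ends and do not grow with transcript length, so CPM is used unscaled for length, although capture can still differ between genes. In class I, decorin (Dcn), which binds collagen and TGF-beta, stood at 18123 CPM in wild type and 19367 in Fbn1 C1039G/+ interstitial cells. Biglycan (Bgn), its closest relative, stood at 4140 and 4227 CPM. Asporin (Aspn), which competes with decorin for collagen, stood at 243 and 224 CPM.

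In class II, lumican (Lum), a keratan sulfate carrier that limits fibril thickness, stood at 2573 and 2475 CPM in interstitial cells, and PRELP (Prelp), which links collagen to heparan sulfate, at 1801 and 1747 CPM. Fibromodulin (Fmod), which shares lumican's collagen site and guides cross-linking, stood at 953 CPM in both libraries. Osteomodulin (Omd), best known from bone, reached only 15.8 and 10.4 CPM. Osteoglycin (Ogn), a class III member, stood at 308 and 220 CPM, and podocan (Podn) at 2.84 and 1.88 CPM. Exact Poisson 95% intervals of these levels, which cover counting error only, did not overlap between neighbours in this order in either library, except Aspn and Ogn in the Fbn1 C1039G/+ library (221 to 227 and 217 to 223 CPM).

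Free RNA in droplets gives every cell some UMIs of abundant genes, so macrophages, which should lack SLRP transcripts, served as the background. Interstitial levels exceeded it 57.7-fold and 73.3-fold for Aspn, 40.9-fold and 36.0-fold for Fmod, and 26.6-fold and 27.3-fold for Ogn. For Dcn the excess was 13.0-fold and 15.3-fold and for Lum 11.2-fold and 11.6-fold. The macrophage level was uneven, since 10 macrophages in each library held 50.7% and 43.8% of the class's Fmod, 60.8% and 59.1% of its Ogn, 64.9% and 68.0% of its Aspn and 23.5% and 38.9% of its Dcn, so these folds rest on few barcodes. Fmod in endothelial cells, at 12.1 and 24.9 CPM, was at or below the macrophage level of 23.3 and 26.5 CPM and is read as background. The same holds for endothelial Ogn (4.29 and 6.17 CPM against 11.6 and 8.06) and for Aspn in wild type (10 UMIs in endothelial cells), while Aspn in Fbn1 C1039G/+ stood at 6.35 CPM against 3.05, from 36 and 25 UMIs. Dcn in endothelial cells stood above it, at 3449 and 4119 CPM against 1396 and 1265 CPM in macrophages, and a Dcn UMI was found in 98.2% and 98.7% of endothelial cells against 69.1% and 67.2% of macrophages, whose median depths were 11103 and 9991 against 8559 and 7577 UMIs. Prelp differed likewise, at 189 and 260 CPM in endothelial cells against 87.8 and 93.8 CPM in macrophages. After thinning each cell to 2000 UMIs, a Prelp UMI was found in 28.5% and 27.8% of endothelial cells and in no more than 9.72% of macrophages in either library, and unthinned in 63.7% and 67.5% against 26.0% and 23.6%.

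**Figure D1:**
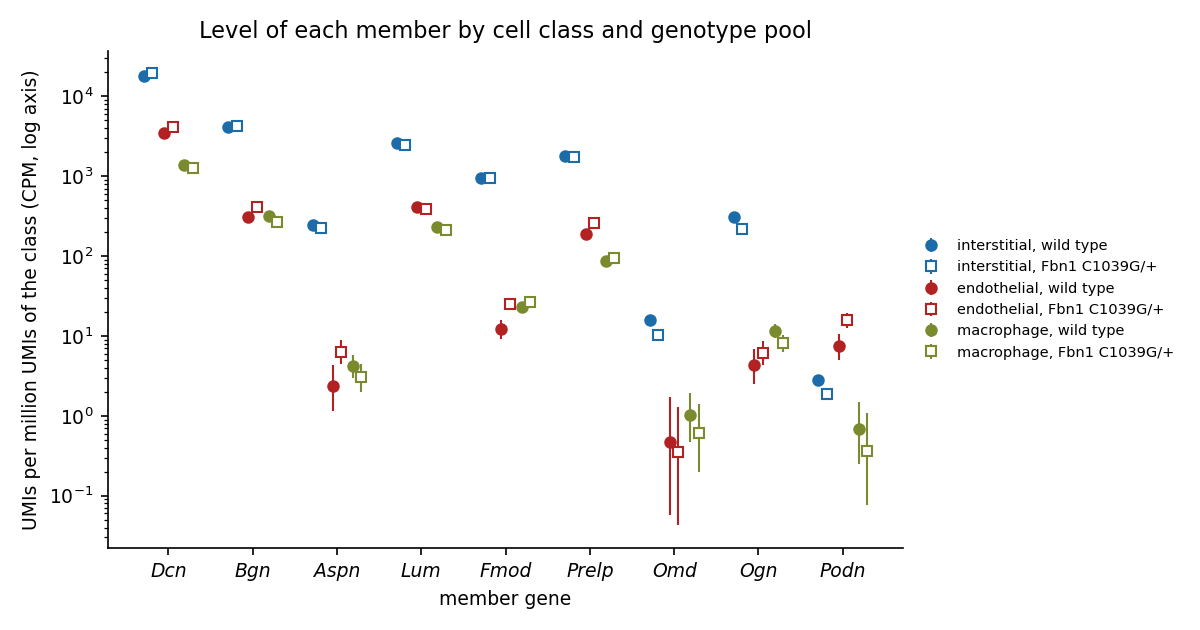
Level of each member in interstitial cells, endothelial cells and macrophages, in CPM on a log axis, with exact Poisson 95% intervals. Filled circles are the wild type pool and open squares the Fbn1 C1039G/+ pool. Interstitial cells are highest for every member but Podn, which stands at 7.38 and 15.7 CPM in endothelial cells.

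Podn was carried by few endothelial cells. It had 31 UMIs in the wild type and 89 in the Fbn1 C1039G/+ endothelial class, and cells with 2 or more UMIs, 9 and 18 of them, held 87.1% and 94.4% of these. Those cells had 890 and 1032 CPM of Pecam1, against 1011 and 915 in cells without Podn. Cdh5 stood at 372 and 492 CPM, against 388 and 437. The class rule selects cells by Pecam1, Cdh5 and Emcn, so these levels are no separate sign of cell type. The median depth of the cells with Podn was 8675 and 7030 UMIs. The 6 genes of greatest excess in both libraries, of those at 100 CPM or more in cells with Podn, were of several kinds. Filter and ranking both favour genes high in these cells, so the excess follows from the choice. In wild type, Galnt15, Tnni3 and Plscr2 rested on only 13, 14 and 20 UMIs in the cells with Podn. Osr1, a transcription factor of mesenchymal progenitors, stood at 215 and 199 CPM against 10.1 and 8.02 in cells without Podn. Tnni3, cardiac troponin I, stood at 137 and 215 CPM against 6.63 and 6.34, Plscr2, a phospholipid scramblase, at 196 and 126 against 5.15 and 7.46, and Galnt15, a glycosyltransferase, at 127 and 194 against 9.33 and 8.21. Fmo2, a flavin monooxygenase, stood at 1458 and 1598 CPM against 148 and 104, and Nrp1, a VEGF and semaphorin co-receptor, at 1233 and 1126 against 126 and 134. Lum was also higher, at 1057 and 634 CPM against 399 and 381. Dcn was higher in wild type (4717 against 3406 CPM) but much the same in Fbn1 C1039G/+ (4216 against 4130 CPM). Prox1, a transcription factor of valve and lymphatic endothelium, was lower (108 and 105 against 191 and 345). So was Nfatc1, known from valve endocardium (58.7 and 57.6 against 124 and 162). Vwf, an endothelial gene also outside the class rule, was higher (196 and 267 against 110 and 119). The genes other than these 6 were chosen after their values were seen, the cells were chosen by Podn itself, and with 9 and 18 cells these are descriptions only. Their median collagen share was 0.346% and 0.139%, against 0.0135% and 0.0208% in endothelial cells without Podn, and the part of RNA from fibroblasts or heart muscle was not tested. With the highest doublet scores removed, Podn was still the only member that was not highest in interstitial cells.

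The 0.5% collagen threshold did not bound all SLRP-expressing cells. Barcodes under it that were neither macrophage nor endothelial, 2009 in wild type and 1060 in Fbn1 C1039G/+ (21.4% and 11.1% of kept barcodes), still had 11177 and 8772 CPM of Dcn and 2172 and 1849 CPM of Lum. They had little Fmod (40.1 and 43.3 CPM), Ogn (20.9 and 13.0 CPM) and Aspn (12.8 and 12.3 CPM). Just inside the threshold, at a collagen share of 0.5% to 0.6%, Fmod stood at 150 and 144 CPM and Ogn at 74.0 and 34.6 CPM. Just outside, at 0.4% to 0.5%, Fmod stood at 94.9 and 69.8 CPM and Ogn at 54.8 and 22.8 CPM, so neither gene was confined to one side of the threshold.

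Collagen share itself sorted the members. From cells with a collagen share of 0.2% to 0.3% to those with 2% to 4%, Fmod was 122-fold and 41.0-fold higher, Ogn 69.8-fold and 24.6-fold, and Aspn 51.4-fold and 71.2-fold. Prelp was 5.25-fold and 5.32-fold higher and Bgn 2.34-fold and 2.85-fold. Dcn was 1.36-fold and 2.04-fold higher, and Lum was lower, at 0.675 and 0.956 of its level in the collagen-poor cells. The collagen-poor band held only 358 and 120 cells, and its Fmod (18.8 and 47.8 CPM) and Ogn (8.34 and 17.9 CPM) were near the macrophage background in wild type, so these folds are rough. Fmod, Ogn and Aspn were thus scarce outside collagen-rich cells, and Dcn, Lum and Bgn were abundant in both bands.

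To ask which members divide interstitial cells, every cell was thinned to 5000 UMIs, which kept 6121 and 6604 cells and left out 134 and 561 shallower ones. A gene's spread beyond counting noise was taken as the excess squared coefficient of variation, (variance - mean) over the squared mean, which is 0 for a gene at the same level in all cells. The 90th percentile of the 6550 measured genes (at least 20 CPM in either library and 50 UMIs over both) was 0.969 and 0.963, and 5 members lay above it in both libraries, Fmod, Ogn, Aspn, Omd and Podn. Omd and Podn were too sparse to be measured genes, and their shares of cells without a UMI were those that counting noise gives within the 95% interval, so only Fmod, Ogn and Aspn are described as dividing the cells. Prelp, at 0.691 and 0.745, was just outside, and Lum (0.367 and 0.372), Dcn (0.198 and 0.199) and Bgn (0.131 and 0.135) were well inside.

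Fmod had an excess of 1.88 and 1.79. It had no UMI in 37.6% and 34.4% of cells, where counting noise alone at its mean would leave 0.981% and 0.764%, while 17.5% and 18.6% of cells had 10 or more. Ogn had an excess of 2.14 and 3.02 and no UMI in 54.2% and 62.1% of cells, against 21.3% and 30.3% from counting noise. Aspn had 2.85 and 3.53, and no UMI in 60.3% and 65.3% of cells, against 30.7% and 34.8%. The tenth of cells with most UMIs held 44.5% and 43.6% of all Fmod, 50.8% and 58.0% of all Ogn and 57.2% and 61.8% of all Aspn. For Dcn that share was 18.5% and 18.6%, and its 10th to 90th percentile range was 39 to 148 and 43 to 159 UMIs per cell. Omd had no UMI in 93.1% and 94.8% of cells, beside 92.4% and 94.4% from counting noise, so little can be said of its cells at this depth. The same 5 members lay above the 90th percentile at both other thinning depths tried.

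**Figure D2:**
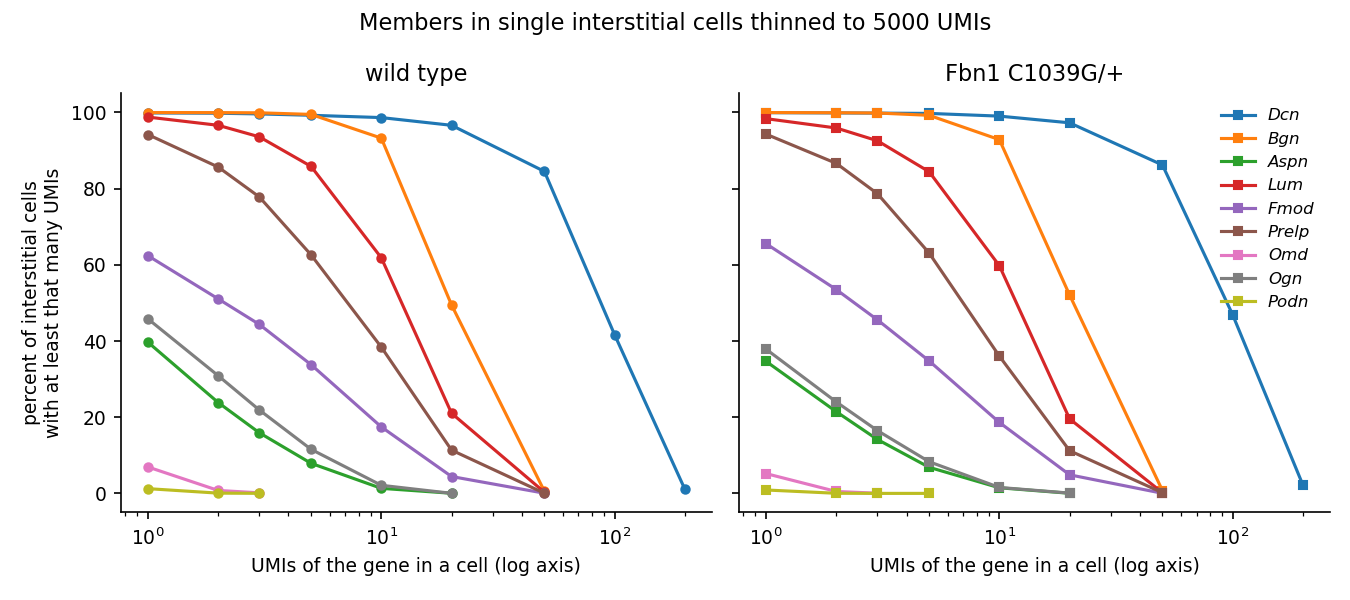
Percent of interstitial cells (thinned to 5000 UMIs) with at least a given number of UMIs of each member, on a log axis, for the wild type pool (left, 6121 cells) and the Fbn1 C1039G/+ pool (right, 6604 cells). Dcn, Bgn and Lum are found in nearly all cells, whereas Fmod is found in 62.4% and 65.6%, Ogn in 45.8% and 37.9% and Aspn in 39.7% and 34.7%.

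Members were next compared cell by cell, with Pearson's r over the thinned cells on log(UMIs + 1). The cells of a library share its depth and free RNA, and thinning to a fixed total makes genes compete for UMIs, so these values are descriptions. Of the 21 pairs among the 7 measured members 17 had a positive r in both libraries, and the 4 with a negative r in both all involved Lum. The strongest pair by far was Fmod with its genomic neighbour Prelp, at 0.74 and 0.75 (Spearman 0.77 in both). Dcn had 0.40 and 0.47 with Prelp, and with Fmod Aspn had 0.37 and 0.33 and Ogn 0.30 and 0.34. Several values were near 0, such as Bgn with Lum (0.00 and 0.07). Lum ran against Fmod at -0.33 and -0.27. Other neighbours in the genome had lower values, Dcn and Lum 0.32 and 0.24, Omd and Ogn 0.20 and 0.21 and Aspn and Omd 0.12 and 0.14, of which those with the sparse Omd are not read further. Aspn and Ogn, on either side of Omd, had 0.22 and 0.27.

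The opposition of Lum and Fmod is visible in the counts. From cells without Fmod (2302 and 2275) through those with 1 to 4 and 5 to 14 UMIs to those with 15 or more (553 and 621), mean Lum per cell went from 16.6 through 13.8 and 10.4 to 7.79 UMIs in wild type. In Fbn1 C1039G/+ it went from 15.0 through 14.1 and 10.7 to 7.51 UMIs. Prelp went the other way, from 3.27 to 22.8 and from 3.27 to 23.9 UMIs. Lum was not absent where Fmod was high, with at least 1 UMI in 97.6% and 96.5% of the cells with most Fmod. Both proteins bind the same region of collagen I, and fibromodulin and lumican are known to act in turn during fibril growth in tendon.

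Genes outside the family gave each member a profile, ranked by the weaker of the 2 libraries' values, so that a gene stronger in 1 library alone can be passed over. The 2 genes most like Fmod were Fibin (0.71 and 0.69), a secreted factor first described in fin development, and Comp (0.68 and 0.68), cartilage oligomeric matrix protein, which catalyses collagen fibril assembly. Comp averaged 0.705 and 0.611 UMIs in cells without Fmod and 24.1 and 25.8 UMIs in cells with 15 or more. Comp (0.62 and 0.61) and Ecrg4 (0.63 and 0.61) were the 2 most like Prelp, with Prg4, lubricin, as high in wild type only (0.63 and 0.56), and Dclk1, a kinase that binds microtubules, was the least like (-0.40 and -0.38). Over 9 measured cartilage and tendon genes the median r was 0.53 and 0.45 with Fmod, 0.43 and 0.35 with Prelp and -0.20 and -0.16 with Lum, beside -0.02 in both libraries for Fmod over all measured genes. In that list Scx, the tendon factor of the basic helix-loop-helix family, had 0.53 and 0.45 with Fmod, and Sox9, the cartilage factor, had -0.07 and -0.12. Matn2, a matrilin of connective tissue, was lowest with Fmod by this ranking (-0.41 and -0.39), although Dpt was as low in wild type (-0.42 and -0.35).

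Ogn had other genes at the ends of its ranking. Its 2 most like genes were Ccn5 (0.47 and 0.48), a matricellular growth regulator, and Sfrp2 (0.44 and 0.47), a Wnt modulator, and its least like was Vcan (-0.44 and -0.47), versican, the large hyaluronan-binding proteoglycan. Mean Vcan per cell went from 4.89 and 6.27 UMIs in cells without Ogn (3317 and 4103) to 0.868 and 0.821 UMIs in cells with 6 or more (508 and 391). Postn, periostin, a collagen partner of the valve, went from 10.6 and 13.5 to 3.27 and 4.29 UMIs. Both also fell with more Fmod. From cells without Fmod to those with 15 or more UMIs, Vcan went from 4.42 and 6.50 to 1.21 and 1.31 UMIs. Postn went from 9.27 and 13.1 to 4.96 and 6.14 UMIs. Comp in turn rose with Ogn, from 3.37 and 3.72 to 12.9 and 15.9 UMIs, so these traits are not particular to Ogn. Fmod was higher, not lower, in the cells with most Ogn, with a UMI in 75.2% and 84.1% of them against 54.6% and 59.2% of cells without Ogn.

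For Lum, Dcn, Bgn and Aspn the highest values were below those of Fmod and Prelp, although those of Dcn were above those of Ogn. Lum was most like Apoe (0.34 and 0.31), the lipid carrier, and Dpt (0.31 and 0.35), dermatopontin, and least like Col12a1 (-0.33 and -0.34), a collagen that coats fibrils. Dcn was most like Ccdc80 (0.53 and 0.53) and Gsn (0.58 and 0.51), gelsolin, and least like Col4a1 (-0.44 and -0.37), a basement membrane collagen. Bgn was most like Sparc (0.46 and 0.42), a collagen-binding protein, and Col1a1 (0.41 and 0.45), and least like Malat1 (-0.32 and -0.27). Aspn was most like Col1a2 (0.41 and 0.41) and Fibin (0.43 and 0.36) and, by the same ranking, least like Atp1b1 (-0.24 and -0.24), with Dpt at -0.25 and -0.19. Col1a1 and Col1a2 also define the class, so these values lie within cells already chosen for collagen. For the sparse Omd and Podn the highest values outside the family were 0.18 and 0.18 (Omd with Sfrp2) and 0.14 and 0.18 (Podn with Eln), and no likeness is read from them.

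**Figure D3:**
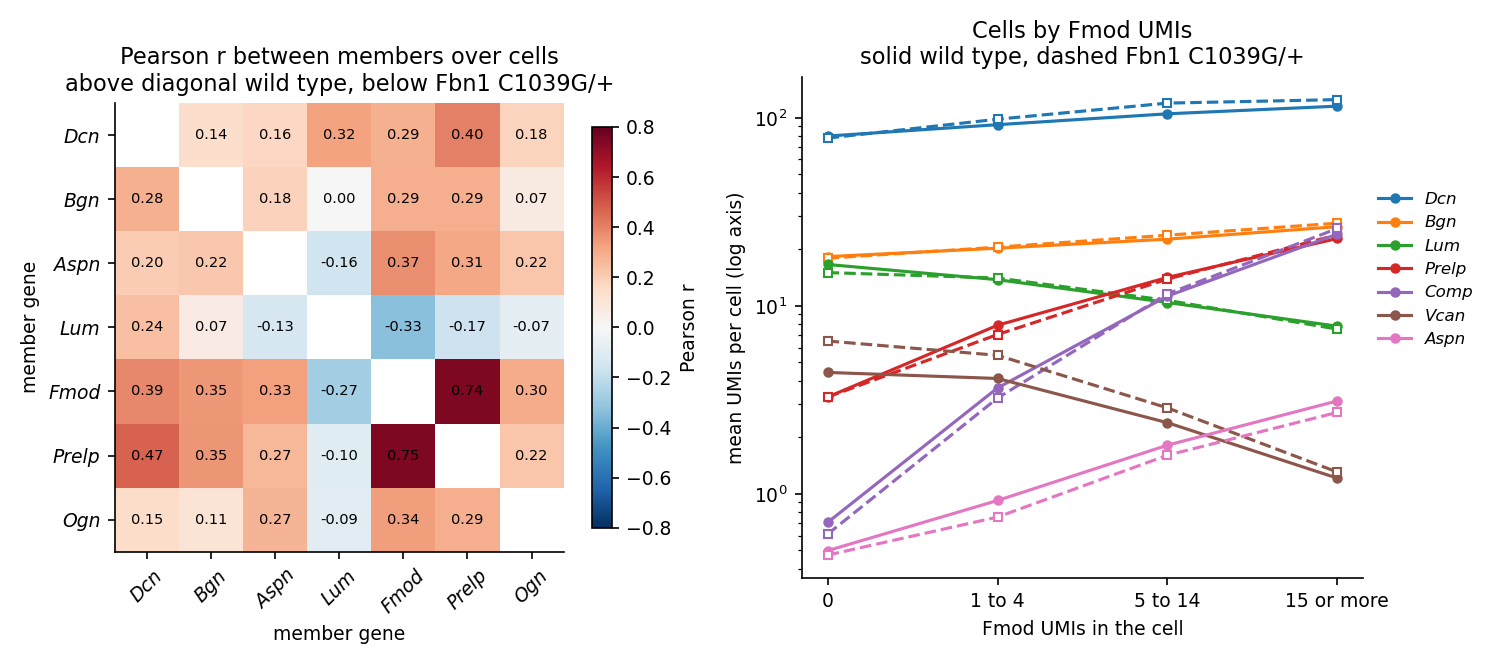
Left, Pearson's r between the 7 measured members over interstitial cells, wild type above and Fbn1 C1039G/+ below the diagonal. Right, mean UMIs per cell (log axis) of 7 genes in cells grouped by Fmod UMIs. Fmod and Prelp share the highest r (0.74 and 0.75), and Lum and Vcan are lower while Prelp, Comp and Aspn are higher with more Fmod.

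Interstitial cells were also clustered without the 9 members and without the genes called between the libraries, 144 genes in all, so that members did not enter the clusters they are read in. Of 10 clusters 6 had at least 50 cells in each library, and they are given by number with their leading genes. Cluster 0 (1753 and 1793 cells) was led by Thbs4, Chad, Chrdl1, Cilp2 and Cilp, genes known from tendon and cartilage. Cluster 2 (1336 and 1159) was led by Bglap2, Igfbp5 and Myoc, cluster 3 (1093 and 801) by Svep1, Mmp3, Igfbp3 and C3, cluster 4 (1024 and 2014) by Id4, Rgs5, Serpine2, Prss35 and Vcan, and cluster 5 (779 and 939) by interferon response genes such as Ifit3 and Isg15. Cluster 6 (210 and 277) was led by Ube2c, Lyz2, C1qa and C1qb and was the deepest (median 20653 and 15778 UMIs). Its macrophage genes go against a purely interstitial label, while its cell cycle genes do not bear on that label. Dcn stood there at 9657 and 12564 CPM, against 1396 and 1265 CPM in macrophages. Whether the cluster holds 1 or several kinds of cells was not tested.

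Fmod and Ogn, which divided cells, peaked in different clusters. Fmod was highest in cluster 0, at 2139 and 2178 CPM, and lowest in cluster 3, at 99.4 and 164 CPM, a range of 21.5-fold and 13.2-fold. The range depends on how finely cells are clustered, and was 139-fold and 114-fold at Leiden resolution 1 (14 clusters) and 54.1-fold and 32.7-fold with 20 principal components (8 clusters). Prelp followed it, from 3229 and 3214 CPM in cluster 0 to 666 and 717 in cluster 4. Ogn was highest in cluster 3, where Fmod was lowest, at 538 and 455 CPM, high in cluster 0 as well (441 and 352 CPM) and lowest in cluster 4 at 42.3 and 47.8 CPM, a range of 12.7-fold and 9.53-fold (56.2-fold and 56.1-fold at resolution 1, 40.3-fold and 31.1-fold with 20 components). Aspn was highest in cluster 5 (433 and 408 CPM) and cluster 0 (410 and 392 CPM), with 76.6 to 157 CPM elsewhere. Podn had its interstitial UMIs mainly in cluster 3, at 9.75 and 10.1 CPM, where its 112 and 86 UMIs were most of its 201 and 152 over all interstitial cells. Its level in the smaller cluster 7 (46 and 31 cells), led by Myh11, Igfbp2 and Des, was 20.4 and 8.83 CPM, from only 12 and 3 UMIs.

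The abundant members varied less. Lum was highest in cluster 3 (4002 and 3656 CPM) and lowest in cluster 6 (1354 and 1572), with 1908 and 1869 CPM in the Fmod-rich cluster 0. Dcn ranged 2.16-fold and 1.90-fold over the 6 clusters and Bgn 1.76-fold and 1.67-fold, and their lowest value was in cluster 6. Without cluster 6, an alternative added after seeing the data, these ranges were 1.52-fold in both libraries for Dcn and 1.34-fold and 1.39-fold for Bgn, while those of Fmod, Ogn, Aspn and Prelp were the same.

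**Figure D4:**
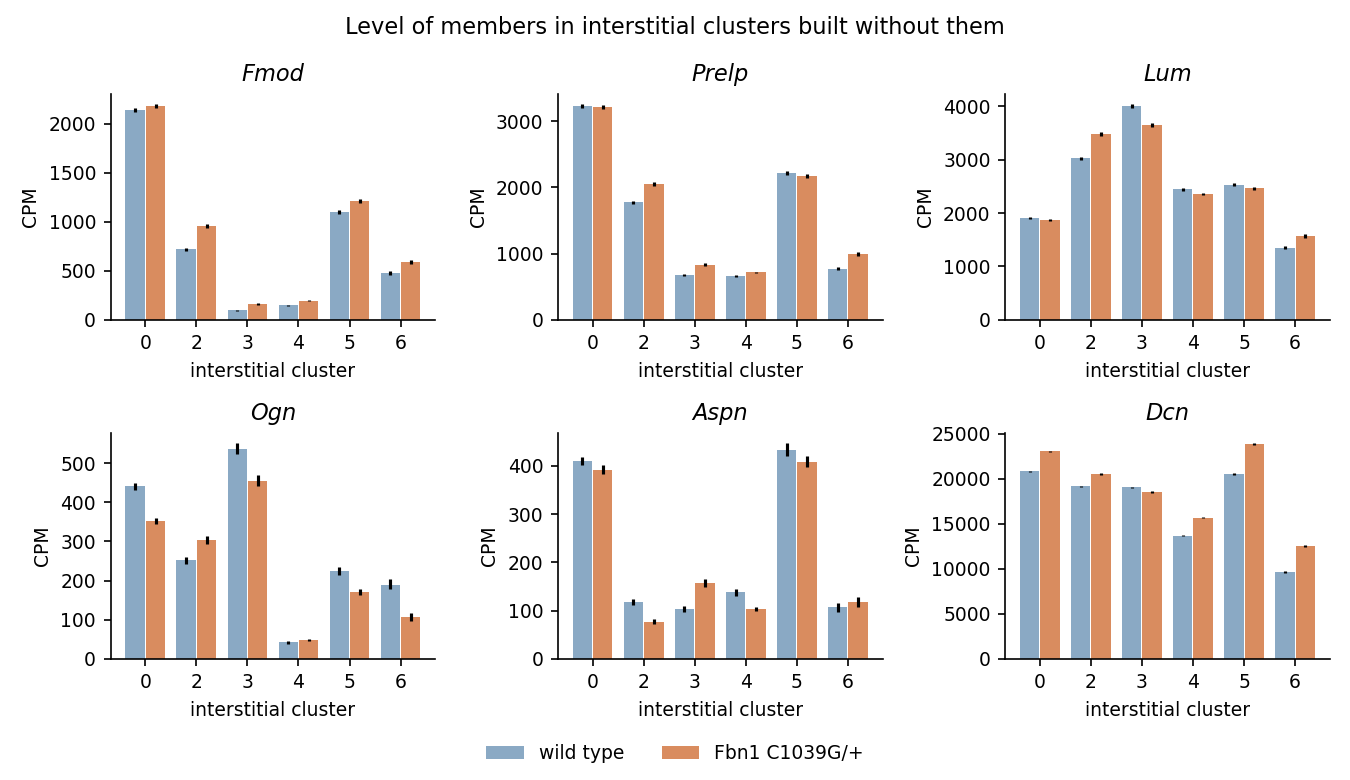
Level of 6 members in CPM in the 6 interstitial clusters with at least 50 cells in each library, with exact Poisson 95% intervals. Fmod and Prelp are highest in cluster 0, Lum and Ogn in cluster 3, Aspn in clusters 5 and 0, and Ogn is lowest in cluster 4 (42.3 and 47.8 CPM).

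Between the genotype pools no measured member reached a 1.5-fold ratio in interstitial cells. A gene was called when its CPM ratio, Fbn1 C1039G/+ over wild type, passed 1.5-fold up or down with an exact 95% interval that excluded 1. Of the 9 members 7 were measured and 0 were called, beside 2.06% of all 6550 measured genes (0.809% higher and 1.25% lower), so a count of 0 among 7 is near the background. The median log2 ratio of the 7 was -0.04, beside 0.03 over all measured genes. The intervals cover counting error only and not differences between mice.

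Decorin had a ratio of 1.07 (1.07 to 1.07), biglycan of 1.02 (1.02 to 1.03), lumican of 0.962 (0.956 to 0.968), PRELP of 0.970 (0.962 to 0.977), fibromodulin of 1.00 (0.991 to 1.01) and asporin of 0.924 (0.904 to 0.943). The lowest was osteoglycin, at 0.715 (0.701 to 0.729), from 308 CPM in wild type to 220 CPM in Fbn1 C1039G/+. Osteomodulin had a ratio of 0.660 (0.603 to 0.723) and podocan of 0.661 (0.531 to 0.819), both at levels under those of measured genes.

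The Ogn ratio was below 1 in each of 6 bands of collagen share, from 0.467 to 0.760, with a mean ratio of 0.597, past the 1.5-fold mark, in an alternative added after seeing the data. The mean over the 6 clusters was much nearer 1, at 0.855 (log2 -0.23), and without cluster 6 its log2 value was -0.10, against -0.48 over all interstitial cells. It was 0.648 (0.629 to 0.668) in cells with Xist and no Y-linked UMI and 0.838 (0.813 to 0.865) in cells with a Y-linked and no Xist UMI. It was below 1 in 4 of 6 clusters and above 1 in cluster 2 (1.20) and cluster 4 (1.13). Cluster 4, lowest in Ogn and high in Vcan, held 16.4% of wild type and 28.1% of Fbn1 C1039G/+ interstitial cells, and cluster 3, highest in Ogn, held 17.5% and 11.2%. Over the same cells 7 of 9 immediate early genes, which respond to tissue digestion among other signals, were called lower and 0 higher. Of 6 interferon response genes 4 were called higher and 0 lower. Among all measured genes 1.25% were called lower and 0.809% higher. The parts of cluster make-up, sex, digestion and interferon response in the Ogn ratio were not tested.

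Fmod showed how the ratio depended on the cells compared. It was 1.00 over all interstitial cells, above 1 in every one of the 6 clusters (1.02 to 1.65) and below 1 in every one of the 6 collagen bands (0.784 to 0.960, with 5 of 6 intervals excluding 1). Cluster 4, poor in Fmod (148 and 197 CPM), made up more of the Fbn1 C1039G/+ cells, as given above. Cluster 3, the poorest of the 6 in Fmod (99.4 and 164 CPM), went the other way, from 17.5% of wild type to 11.2% of Fbn1 C1039G/+ cells. The bands of highest collagen share, rich in Fmod, held more Fbn1 C1039G/+ cells (1273 against 735 at a share of 2% to 4%). The part of either make-up in the Fmod ratio was not tested. Aspn ranged from 0.652 to 1.54 over clusters and from 0.580 to 1.28 over bands, so neither gene had a direction that held across the groupings. In the other classes 1 of 5 measured members was called in endothelial cells, Fmod, higher at a background level (ratio 2.05, 1.48 to 2.88), beside 5.65% of 7239 genes (2.85% higher and 2.8% lower). In macrophages 0 of 5 were called, beside 4.11% of 6229 genes (1.43% higher and 2.68% lower). Endothelial Fmod was 8.19 and 6.80 CPM, the opposite direction, in cells with Xist and no Y-linked UMI.

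**Figure D5:**
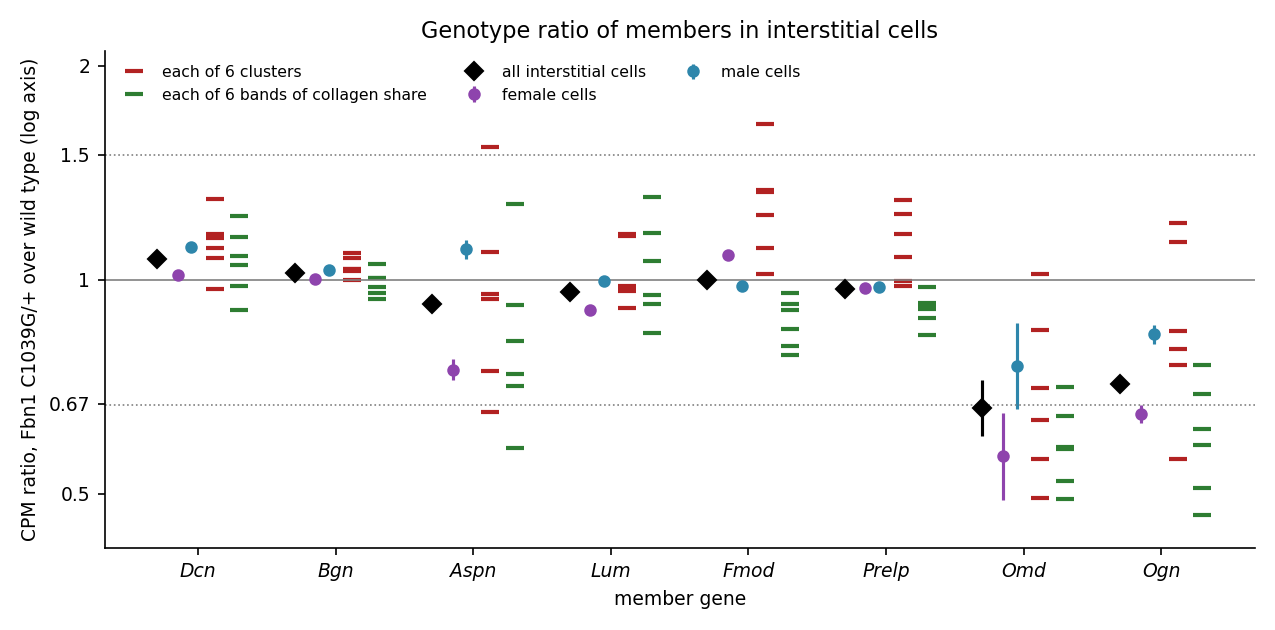
CPM ratio of Fbn1 C1039G/+ over wild type in interstitial cells on a log axis, for all cells (diamonds), female and male cells by Xist and Y-linked UMIs (circles), each of 6 clusters and each of 6 bands of collagen share (dashes), with exact 95% intervals on diamonds and circles. Dotted lines mark 1.5-fold. Ogn is below 1 in all bands, and Fmod is above 1 in all 6 clusters and below 1 in all 6 bands.

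Genes that make, cut or accompany SLRPs were read from lists in interstitial cells, beside the 2.06% of all measured genes called (0.809% higher and 1.25% lower). With so few genes in a list, a count of 0 or 1 cannot be told from that background. Of 9 other family members 2 were measured, and 1 was called lower, Chad, chondroadherin of cartilage, at 162 and 83.6 CPM (ratio 0.517, 0.502 to 0.533). Ecm2, which lies beside Aspn, stood at 213 and 169 CPM (0.794). Of 22 enzymes that start, extend and sulfate chondroitin and dermatan sulfate chains 12 were measured and 0 called, with ratios from 0.988 for Dsel to 1.21 for Chpf2. Of 7 keratan sulfate enzymes 3 were measured and 0 called, the highest ratio being that of the sulfotransferase Chst2 (1.31, at 18.0 and 23.5 CPM).

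Of 15 proteases and receptors of SLRPs 11 were measured and 1 was called lower, Adamts1, a matrix protease also known as an early response gene, at 56.4 and 34.1 CPM. Bmp1, which cuts the propeptide of biglycan, had a ratio of 1.24 (125 and 155 CPM), and Mmp2 one of 1.21 (843 and 1016 CPM). All 7 collagen partners were measured and 0 called, with ratios from 1.08 to 1.16. Col1a1, Col1a2 and Col3a1 among them also defined the class.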

How the data were processed

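The authors deposited raw UMI counts per gene and barcode for 2 libraries, with no normalization. Per the submitters' processing notes they were made with Cell Ranger 3.1.0 on mm10, while the file headers name 5.0.1. Empty droplets were not used here, and no correction for free RNA was made. UMIs were summed over each class and given as CPM. Intervals are exact and at 95%: Poisson for levels, conditional binomial for ratios, Clopper-Pearson for shares. Genes were measured at 20 CPM or more in either library and 50 UMIs or more over both, and log2 ratios used a pseudocount of 1 CPM. Clusters used scanpy 1.11.5 with 2000 variable genes, 30 principal components, 15 neighbours and Leiden resolution 0.5. Scripts were tested on simulated data. Named genes are the 9 members, the 2 genes with the highest and the 1 with the lowest r with each (by the weaker of the 2 libraries), and lists by symbol. The genes of Podn-positive endothelial cells and Prg4 and Dpt beside the ranked genes were added after their values were seen. The members and lists were chosen with earlier results of these data known. Alternatives covered depth, mitochondrial share, Scrublet scores (0.8% per 1000 barcodes removed, since its own threshold marked 0% and 0.0105%), scaling (edgeR 4.0.16 TMM, median ratios), thinning, pseudocount, level filter, sex and collagen share. The C1039G allele cannot be checked from 3′ counts of Fbn1.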

Additional observations from a re-analysis of the deposited data

Results flagged for a closer look

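Among interstitial cells divided by sex-linked UMIs, 2 members had ratios on opposite sides of 1 with intervals that exclude 1. Aspn had a ratio of Fbn1 C1039G/+ over wild type of 0.747 (0.723 to 0.773) in cells with Xist and no Y-linked UMI, and of 1.10 (1.07 to 1.14) in cells with a Y-linked and no Xist UMI. The levels were 243 and 181 CPM in the former and 250 and 276 CPM in the latter. Fmod had 1.08 (1.07 to 1.10) in the former, from 847 to 917 CPM, and 0.980 (0.965 to 0.995) in the latter, from 1054 to 1032 CPM. The difference between the sexes was not tested. The Fbn1 C1039G/+ pool held 3 mice of both sexes, so at least 1 sex came from a single mouse.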

How the results depend on the processing

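The count of members called in interstitial cells stayed at 0 in 11 of 14 alternatives, those added after seeing the data aside. It was 1 in cells with Xist and no Y-linked UMI (Ogn lower, log2 ratio -0.62) and 1 at collagen shares of at least 1% and of at least 2% (Omd lower, -0.64 in each). It was 1 with ratios averaged within collagen bands (Ogn, -0.74), added after seeing the data. Over 18 alternatives Ogn, Omd and Podn were always below 0 and Dcn always above, while Fmod (10 above, 8 below), Prelp (5 and 13), Lum (4 and 14), Aspn (2 and 16) and Bgn (17 and 1) turned sign. Endothelial calls went from 1 to 2 without the highest Scrublet scores, as mean CPM over cells and in cells with Xist and no Y-linked UMI, and to 3 without a level filter. Thinned to 2000 UMIs the 1 call was Prelp rather than Fmod. Fmod reversed to a log2 ratio of -0.24 in the Xist cells, from 0.98. Macrophage calls went from 0 to 2 without the highest Scrublet scores (Bgn and Lum lower) and to 1 in the Xist cells (Dcn lower). The causes were not tested. The members above the 90th percentile of spread, the sparse Omd and Podn included, were 5 in every alternative that kept that percentile, and 7 at the 75th (Lum and Prelp added). Members with a range of 4-fold or more over clusters were 5, 7 at resolution 1, 6 with 20 components and 5 without cluster 6. TMM and median ratios moved interstitial log2 ratios by under 0.01. No paired analysis was possible because each genotype had 1 library. Depth leaves Omd and Podn unread in single cells.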
